A study of Mus musculus with 3 samples.

Results

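The genes described here are the potassium channel subunits outside the voltage-gated alpha family. They comprise the inward rectifiers (Kcnj), the tandem-pore leak channels (Kcnk), the channels opened by calcium or sodium (Kcnn, Kcnt, Kcnu, Kcnma) and the auxiliary subunits Kcnmb, Kcnip, Kcnab and Kcne. Members were chosen by symbol alone, as genes whose name is one of these stems followed by a number and which have a probe set assigned to no other gene. The rule found 50 genes with 54 probe sets, out of 20751 genes tested with 22081 probe sets. RefSeq lists 52 mouse genes with such a name. The other 2, Kcnj13 and Kcnk3, are represented by probe sets shared with another gene and were not analysed here.

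Expression was measured on 1-colour arrays in 3 replicate cultures, which form 1 group, of cells from the medial ganglionic eminence (MGE), the embryonic ventral forebrain region that generates many cortical and striatal GABA interneurons. The tissue came from wild-type CD-1 mouse embryos at embryonic day 13. All 3 cultures had been grown on laminin and poly-D-lysine with FGF2, B27 supplement and glutamine, had received AraC, a nucleoside analogue toxic to dividing cells, at 1 µM for 24 h from day 5, and were kept for 2 days after it was washed out. No culture without AraC, no unpurified tissue and no other cell type is part of the series, so no gene can be called higher or lower than in another condition. The label of the cells was set against marker genes. With a margin of 1 log2 unit over the background line defined below, all 8 general neuronal and all 8 GABA and MGE markers were called on the mean of the 3 cultures, against 47.6% of all genes. So were 7 of 10 astrocyte markers, 7 of 9 measured markers of the oligodendrocyte lineage and 6 of 6 genes of dividing cells, against 1 of 8 microglial, 0 of 6 endothelial and 2 of 8 pericyte and smooth muscle markers. In bulk RNA, fewer cells of a type and less RNA per cell cannot be told apart. The labels call the cultures biological replicates but do not say which animals or litters each came from, so the p-values measure the spread between these 3 cultures. They take the background line as fixed and hold none of the spread among the background probe sets.

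Potassium channels set the resting potential and the excitability of neurons. Inward rectifiers and leak channels are open near rest, calcium- and sodium-activated channels open after activity and shape the pause that follows a spike, and the auxiliary subunits change the gating, surface level or location of a pore that another gene encodes. In glia, inward rectifiers also carry the potassium that neurons release away from the extracellular space. Values below are log2 signals, which the authors deposited, and the mean ± SD is over n = 3 cultures. A gene was called above background when limma's 1-sided test placed its mean above a line of 6.26 log2 units (adjusted p under 0.05), the 95th percentile of the means of chemoreceptor probe sets (olfactory, vomeronasal, bitter taste), genes of sensory organs. It was called below the line when the opposite test passed. Where neither passed, the data do not decide. Binding strength is particular to a probe set, so levels were set against the line and not against each other.

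Of the 50 genes, 33 (66%) were above background, 7 (14%) were below the line and 10 passed neither test. Over all genes tested 63.4% were above background and 26.8% were below the line, so the share above was close to that of genes in general. With a margin of 1 log2 unit above the line, 16 of the 50 (32%) were called, against 47.6% of all genes. The median distance of the mean from the line was 0.91 log2 units for the 50 genes and 1.08 for all genes. The call was made for 24 of 35 pore-forming genes (10 with the margin) and for 9 of 15 auxiliary genes (6 with the margin). With the line at the 99th percentile (7.10), 18 of the 33 kept the call, and against a line from other gene families (7.22) 16 did, when 49.9% and 48.5% of all genes were called. Among the families the call ranged from 4 of 4 Kcnip genes to 0 of 4 Kcne genes. The plot of all members by culture shows both lines.

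**Figure D1:**
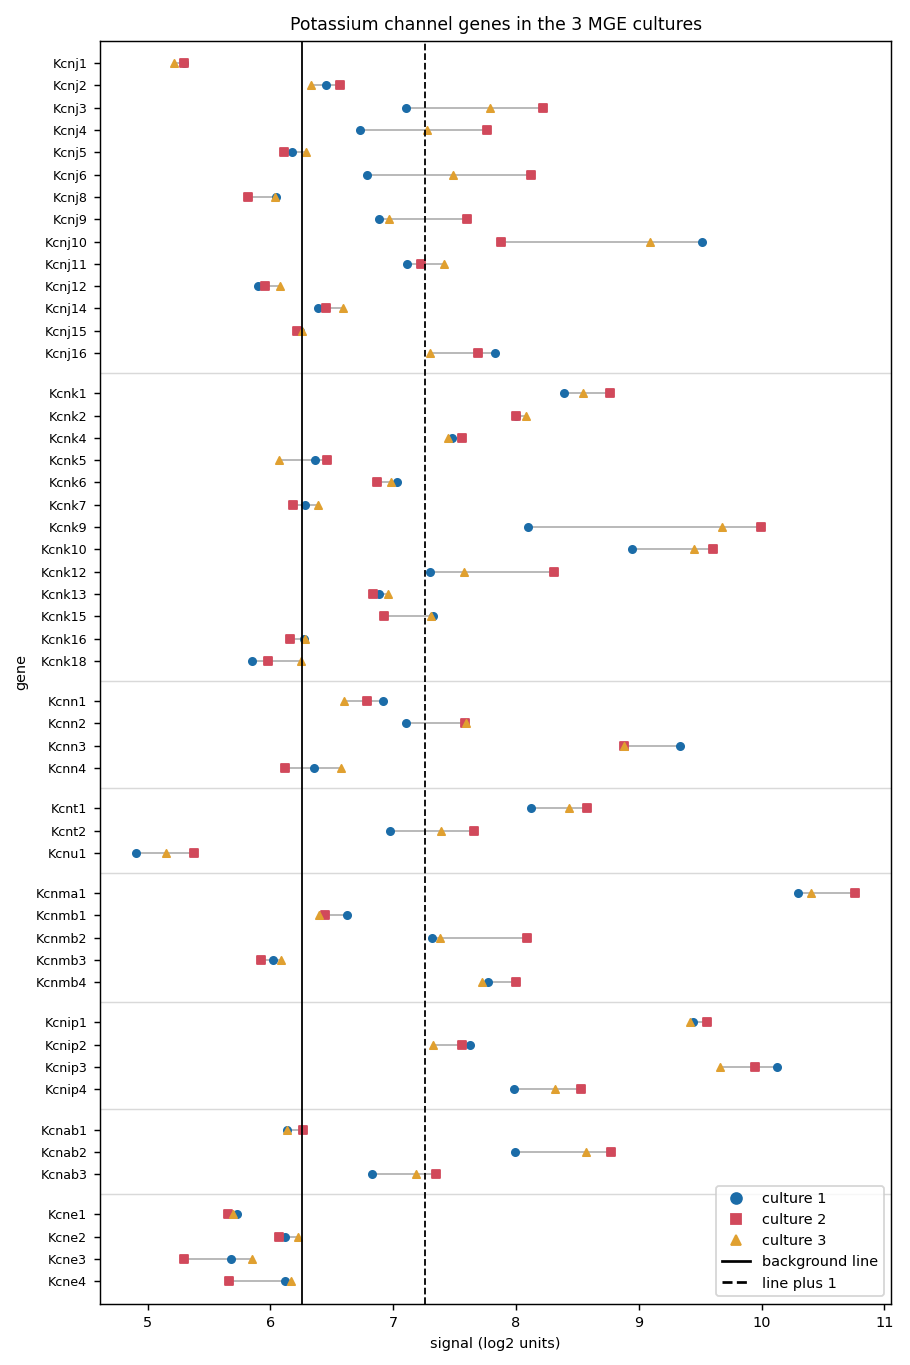
Log2 signal of the 50 channel genes (rows, grouped by family) in cultures 1, 2 and 3 (points); the solid line is the background line at 6.26 and the dashed line lies 1 log2 unit higher. All 4 Kcnip genes lie to the right of the dashed line in every culture, the 4 Kcne genes lie left of the solid line, and Kcnk9 and Kcnj10 have the widest spread.

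The stretch before the transcription start was read from RefSeq (GRCm38.p6) for the 41 members that have one in the table used, as 250 bases per start. The 5 shown are those of the glial rectifier Kcnj10, of the partners Kcnj3 and Kcnj6, which differed between cultures in the opposite way from Kcnj10, of Kcnma1, a gene well above the line, and of Kcnj1, a gene below it. Where a gene had several starts, the stretch with the most CpG dinucleotides is shown, and the same was done for all genes. Capitals mark CpG.
Kcnj10, chr1:172340960-172341209, plus strand: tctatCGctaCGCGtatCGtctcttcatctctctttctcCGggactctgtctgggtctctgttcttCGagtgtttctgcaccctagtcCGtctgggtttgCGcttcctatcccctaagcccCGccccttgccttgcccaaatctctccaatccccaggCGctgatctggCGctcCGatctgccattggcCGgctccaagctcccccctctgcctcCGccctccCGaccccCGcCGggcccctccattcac
Kcnj3, chr2:55435720-55435969, plus strand: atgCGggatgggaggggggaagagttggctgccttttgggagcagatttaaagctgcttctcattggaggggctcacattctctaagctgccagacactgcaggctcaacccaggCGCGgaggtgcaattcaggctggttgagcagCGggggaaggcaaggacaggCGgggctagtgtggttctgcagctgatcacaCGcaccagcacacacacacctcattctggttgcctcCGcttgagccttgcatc
Kcnj6, chr16:94997697-94997946, minus strand: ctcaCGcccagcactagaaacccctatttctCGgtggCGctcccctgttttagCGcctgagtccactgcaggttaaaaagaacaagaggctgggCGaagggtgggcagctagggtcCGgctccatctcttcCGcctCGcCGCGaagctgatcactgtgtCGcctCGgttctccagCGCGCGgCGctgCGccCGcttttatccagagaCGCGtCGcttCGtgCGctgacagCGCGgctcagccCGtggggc
Kcnma1, chr14:24004206-24004455, minus strand: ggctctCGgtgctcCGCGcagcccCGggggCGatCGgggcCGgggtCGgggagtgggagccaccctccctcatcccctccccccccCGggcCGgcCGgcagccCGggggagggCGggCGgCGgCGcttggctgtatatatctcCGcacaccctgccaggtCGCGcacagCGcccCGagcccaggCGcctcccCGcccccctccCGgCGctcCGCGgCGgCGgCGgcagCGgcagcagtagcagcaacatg
Kcnj1, chr9:32393735-32393984, plus strand: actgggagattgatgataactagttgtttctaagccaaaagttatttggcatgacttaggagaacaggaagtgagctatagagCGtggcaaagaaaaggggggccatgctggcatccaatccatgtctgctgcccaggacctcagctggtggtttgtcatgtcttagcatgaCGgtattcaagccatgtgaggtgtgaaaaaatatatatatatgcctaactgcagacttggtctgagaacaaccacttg
These stretches hold 17 CpG for Kcnj10, 7 for Kcnj3, 26 for Kcnj6, 31 for Kcnma1 and 2 for Kcnj1. The median was 13 CpG over the 26 members above background that had a stretch, 6.5 over the 10 with neither call and 6 over the 5 below the line. Over all tested genes with a stretch the medians were 17 for 10295 genes above background, 6 for 1482 with neither call and 3 for 3999 below the line, so members and other genes ran the same way. A gene with more starts has more stretches from which the highest count is taken, and the part of this in the medians was not tested. At least 15 CpG were found in 12 of the 26 members above background (46.2%) and in 59.7% of all genes above background. The GC box (GGGCGG, either strand) was present in 24 of the members' 61 stretches (39.3%) and in 45.6% of all 19393. The TATA box (TATAAA, either strand) was present in 2 of 61 (3.28%) and in 9.64% of all. These matches describe the letters of the stretch and show no binding.

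**Figure D2:**
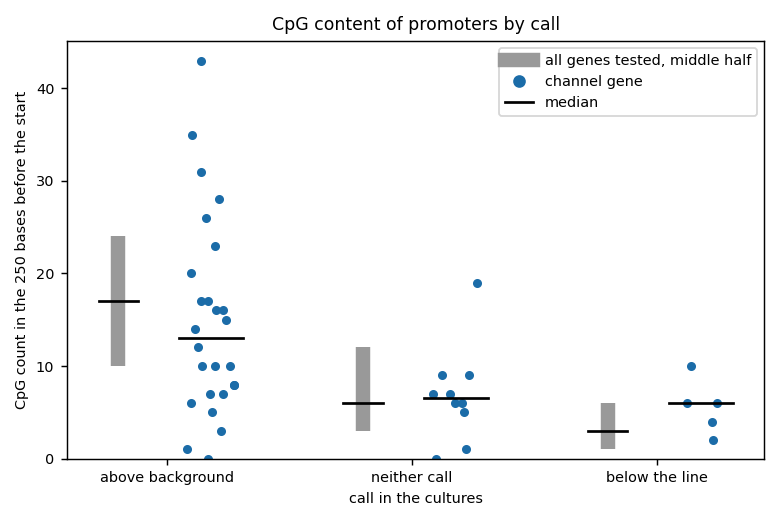
CpG count in the 250 bases before the start (y axis) by call in the cultures (x axis); grey bars span the lower to the upper quartile of all tested genes, blue points are channel genes and black lines are medians. Members above background have a median of 13 CpG and those below the line have 6, against 17 and 3 for all genes.

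Of the 14 inward rectifiers, 9 were above background (2 with a margin of 1), 3 were below the line and 2 passed neither test. The Kir3 or GIRK subunits, which open when a transmitter receptor releases G protein beta-gamma, were represented by Kcnj3, Kcnj6 and Kcnj9, the neuronal set. Kcnj3 (GIRK1) read 7.10, 8.22 and 7.79 in cultures 1, 2 and 3, a mean of 7.70 ± 0.56 (adjusted p = 0.00267). Kcnj6 (GIRK2) read 6.79, 8.12 and 7.49, a mean of 7.47 ± 0.67 (adjusted p = 0.00895). Kcnj9 (GIRK3) read 6.88, 7.60 and 6.97, a mean of 7.15 ± 0.39 (adjusted p = 0.00449). All 3 were lowest in culture 1 and highest in culture 2. None of the 3 kept its call with the line at the 99th percentile (adjusted p = 0.0590, 0.243 and 0.744). Without culture 2 and without culture 3, the call of Kcnj6 was lost (adjusted p = 0.0592 and 0.0631). Kcnj5 (GIRK4), the partner of GIRK1 in heart atrium, lay at 6.19 ± 0.09 and passed neither test (95% interval of its distance from the line -0.24 to 0.10). A second probe set of Kcnj3 read 5.80, 6.05 and 6.12 and passed neither test, so the probe sets of this gene disagreed.

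The genes that act on GIRK channels were measured alongside them. From a list of 12, 11 were measured and all 11 were above background (10 with a margin of 1). Over all genes tested these shares were 63.4% and 47.6%. Rgs4, which speeds G protein shut-off, read 8.93, 10.16 and 9.98, Gng4, a G protein gamma subunit, read 9.16, 10.49 and 10.23, and Rgs7bp, which anchors Rgs7 at the membrane, read 9.92, 11.03 and 10.74. As for the channel subunits, culture 1 was the lowest for 8 of the 11 and culture 2 the highest for 8. Of all genes above background, 43.7% were lowest in culture 1 and 52.0% were highest in culture 2. Snx27, a sorting protein that binds GIRK channels, hardly differed between cultures (10.39 ± 0.01).

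Among the strong rectifiers of the Kir2 family, Kcnj4 (Kir2.3) read 6.73, 7.76 and 7.28 (7.26 ± 0.52, adjusted p = 0.00751), again lowest in culture 1 and highest in culture 2. Its call was lost without culture 2 (adjusted p = 0.0543), without culture 3 (0.0568) and at the 99th percentile line (0.487). Kcnj2 (Kir2.1) at 6.45 ± 0.12 and Kcnj14 (Kir2.4) at 6.47 ± 0.10 passed the test only just above the line (adjusted p = 0.0365 and 0.0220). The call of Kcnj2 was lost without culture 1 (0.0801) or 2 (0.361), and that of Kcnj14 without culture 2 (0.160) or 3 (0.0966). Kcnj12 (Kir2.2) at 5.98 ± 0.09 was below the line with all 3 cultures (adjusted p = 0.0184) but not with any culture left out.

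The ATP-sensitive channels, which link excitability to metabolism, need a Kir6 pore and a sulfonylurea receptor. Kcnj11 (Kir6.2) read 7.11, 7.23 and 7.41 (7.25 ± 0.15, adjusted p = 0.000184, and 0.119 at the 99th percentile line), and Abcc8, the SUR1 receptor that pairs with it in neurons and beta cells, read 7.14, 7.61 and 7.32 (7.36 ± 0.24, adjusted p = 0.000419). Neither gene of the vascular pair was called above background. Kcnj8 (Kir6.1), a pericyte and smooth muscle gene, read 6.05, 5.81 and 6.04 and was below the line (adjusted p = 0.0267, a call lost without culture 1 or 3), and Abcc9 (SUR2) lay at 6.23 ± 0.21 with neither call. On the RefSeq map each pore gene is the direct neighbour of its receptor gene, Kcnj11 of Abcc8 and Kcnj8 of Abcc9. Of 8 pericyte and smooth muscle markers, 6 were above background (2 with a margin of 1). Their summed signal ranged from 10.34 to 10.95 log2 units over the cultures, Anpep was below the line and Vtn passed neither test.

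Kcnj10 (Kir4.1), the main potassium channel of astrocytes and also a channel of oligodendrocytes, differed between cultures in the opposite way from the GIRK genes. It read 9.52 in culture 1, 7.88 in culture 2 and 9.09 in culture 3, a mean of 8.83 ± 0.85 (adjusted p = 0.00140, and 0.0111 with a margin of 1). The margin call was lost without culture 1 and without culture 3. Kcnj16 (Kir5.1), which forms mixed channels with Kir4.1, read 7.83, 7.69 and 7.30 (7.61 ± 0.27) and did not share that order. It was above background (adjusted p = 0.000295), and with a margin of 1 the adjusted p was 0.0464, a call lost without culture 1 and without culture 2. Among astrocyte markers, Gfap, the astrocytic intermediate filament, read 8.51, 6.64 and 8.08, Aqp4, the water channel that lies beside Kir4.1 in astrocyte endfeet, read 8.74, 7.53 and 8.34, and Gja1, a gap junction protein, read 11.22, 10.001 and 10.67. Of the 8 astrocyte markers above background, 8 were highest in culture 1 and 7 lowest in culture 2. Of all genes above background, 32.4% were highest in culture 1 and 24.9% lowest in culture 2. Gjb6 was below the line and S100b passed neither test. The summed signal of the list was 13.91, 13.15 and 13.50 log2 units. Of the 8 oligodendrocyte lineage markers above background, 7 were highest in culture 1 and 6 lowest in culture 2, by unlike amounts. Gpr17, a marker of committed oligodendrocyte precursors, differed most of these 8 and read 10.75, 9.42 and 10.06. Enpp6, a measured marker of the list with neither call, read 7.75, 6.09 and 7.26. Its difference of 1.65 log2 units was wider than that of Gpr17 (1.32). Pdgfra, Olig1 and Olig2 differed by 0.098, 0.18 and 0.24 log2 units, and Cspg4 was highest in culture 2. The summed signal of the oligodendrocyte list was 13.61, 13.29 and 13.37 log2 units. Of 4 measured genes whose proteins bind or lie beside Kir4.1 (Dlg1, Dmd, Dtna and Aqp4), all were above background with the margin and 3 were highest in culture 1. The part of these cells in the values of Kcnj10 was not tested. Kcnj1 (ROMK, a channel of the kidney tubule) was below the line at 5.27 ± 0.05 (adjusted p = 0.000234), and Kcnj15 (Kir4.2) lay on it at 6.24 ± 0.02.

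Of the 13 leak channels, 9 were above background (5 with a margin of 1), none was called below the line, and 4 passed neither test. Each of their subunits carries a pair of pore loops, and their current is active at rest. Kcnk9 (TASK3), a channel closed by acid outside the cell and by Gq-coupled receptors, read 8.10, 9.99 and 9.67, a mean of 9.25 ± 1.02 (adjusted p = 0.00150). Culture 1 thus lay well below the other two. Its highest and lowest cultures differed by 1.90 log2 units, and 0.0304% of all genes above background had a wider difference. The margin call (adjusted p = 0.00881) was lost without culture 2 and without culture 3.

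The TREK and TRAAK channels, opened by stretch, heat and lipids, were all above background with the margin. Kcnk2 (TREK1) read 7.9996, 8.004 and 8.08 (8.03 ± 0.05, adjusted p = 6.12e-06) and was among the steadiest members. Kcnk10 (TREK2) read 8.95, 9.61 and 9.45 (9.34 ± 0.34, adjusted p = 3.03e-05), lowest in culture 1. Kcnk4 (TRAAK) read 7.48, 7.56 and 7.45 (7.49 ± 0.06, adjusted p = 2.19e-05), though with a margin of 1 its call (adjusted p = 0.0126) was lost without culture 2 and without culture 3. Kcnk1 (TWIK1), a weakly conducting channel, read 8.39, 8.77 and 8.54 (8.57 ± 0.19) and was called with the margin too (adjusted p = 0.000168).

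The halothane-inhibited pair had unlike spreads. Kcnk12 (THIK2), silent in many assays when it is alone, read 7.30, 8.31 and 7.58 (7.73 ± 0.52, adjusted p = 0.00191), with culture 2 the highest, and was not called against the other gene families (adjusted p = 0.0801). Kcnk13 (THIK1), the tonic potassium channel of microglia and also made by other cells, read 6.88, 6.83 and 6.96 (6.89 ± 0.06, adjusted p = 0.000272). Kcnk6 (TWIK2), found in myeloid cells and vessels, lay at 6.96 ± 0.08 (adjusted p = 0.000240). Neither Kcnk13 nor Kcnk6 kept its call at the 99th percentile line, under which their means lay (-0.20 and -0.14 log2 units). Of 8 microglial markers 5 were above background, but 1 of them, the lysosomal gene Cd68, was called with the margin. Itgam was below the line, Csf1r and Tmem119 passed neither test, and the summed signal ranged from 9.93 to 9.95 log2 units. Of 6 endothelial markers 5 were above background but none with the margin, Tek was below the line, and the summed signal ranged from 9.21 to 9.35 log2 units. Their part in the signal of Kcnk13 and Kcnk6 was not tested. Kcnk15 (TASK5), which gives no current by itself, lay at 7.18 ± 0.23 (adjusted p = 0.000698, and 0.438 at the 99th percentile line). Kcnk5 (TASK2) at 6.30 ± 0.20, Kcnk7 at 6.28 ± 0.10, the pancreatic channel Kcnk16 (TALK1) at 6.24 ± 0.07 and the sensory neuron channel Kcnk18 (TRESK) at 6.03 ± 0.20 were the 4 with neither call. Regulators of these channels, among them the Gq subunits Gnaq and Gna11, came from a list written with earlier results of these data known. Above background were 7 of 7 measured, all with the margin, against 63.4% and 47.6% of all genes.

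Calcium-activated channels of small conductance (SK) were above background in all 3 subtypes. Kcnn3 (SK3) read 9.33, 8.88 and 8.88 (9.03 ± 0.26, adjusted p = 1.92e-05, and 0.000138 with a margin of 1), with culture 1 the highest. Kcnn2 (SK2) read 7.11, 7.58 and 7.59 (7.43 ± 0.28, adjusted p = 0.000535), with culture 1 the lowest. Kcnn1 (SK1) read 6.92, 6.79 and 6.60 (6.77 ± 0.16, adjusted p = 0.00251). The 3 subtypes therefore did not share an order over cultures. At the 99th percentile line Kcnn3 kept its call, while Kcnn2 (adjusted p = 0.0536) and Kcnn1, whose mean lies under that line, did not. Kcnn4, the intermediate conductance channel of red blood cells, lymphocytes and microglia, read 6.35, 6.12 and 6.57 and passed neither test (95% interval of its distance from the line -0.20 to 0.37). Of casein kinase 2, which is bound to SK channels, Csnk2a1 and Csnk2a2 were measured and both were above background with the margin.

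Both sodium-activated channel genes were above background. Kcnt1 (Slack) read 8.13, 8.58 and 8.43 (8.38 ± 0.23, adjusted p = 3.45e-05, and 0.000498 with a margin of 1). Kcnt2 (Slick) read 6.97, 7.66 and 7.39 (7.34 ± 0.35, adjusted p = 0.00147), a call lost at the 99th percentile line (0.174). Both were lowest in culture 1 and highest in culture 2. Kcnu1 (Slo3), the pH-gated channel of sperm, read 4.91, 5.38 and 5.15 and was below the line (adjusted p = 0.00124).

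The BK channel opens to calcium and voltage together and ends the action potential. Its pore gene Kcnma1 read 10.30, 10.76 and 10.40 (10.49 ± 0.24, adjusted p = 4.21e-06), 4.23 log2 units above the line. A second probe set of Kcnma1 read 5.97, 5.36 and 5.73 and was below the line (adjusted p = 0.0223). Beta subunits slow the channel or make it inactivate. Kcnmb4, the neuronal beta subunit, read 7.77, 8.001 and 7.73 (7.83 ± 0.15, adjusted p = 3.32e-05, and 0.00189 with a margin of 1), and its second probe set was above background too. Kcnmb2, the inactivating subunit, read 7.32, 8.09 and 7.38 (7.59 ± 0.43, adjusted p = 0.00137), with culture 2 set apart from the others, and was not called against the other gene families (adjusted p = 0.108). Kcnmb1, the smooth muscle subunit, read 6.62, 6.44 and 6.39 and was just above the line (adjusted p = 0.0235), a call lost without culture 2 (0.149) or 3 (0.0526). Of the 6 pericyte and smooth muscle markers above background, each culture was the highest for 2 and the lowest for 2. The smooth muscle actin Acta2 read 9.93, 9.87 and 8.38 and the smooth muscle myosin Myh11 6.76, 6.59 and 6.93, and their part in the Kcnmb1 signal was not tested. Kcnmb1 lies within the span of Kcnip1 on the RefSeq map. Kcnmb3 at 6.01 ± 0.08 was below the line (adjusted p = 0.0228), a call lost without culture 1 or 3. Of the leucine-rich gamma subunits that shift BK gating, Lrrc55, Lrrc26 and Lrrc52 were above background (Lrrc55 with the margin, 8.04 ± 0.22) and Lrrc38 was below the line.

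Every gene of the Kv channel-interacting proteins was above background with the margin. These calcium-binding proteins attach to Kv4 pores, which carry the fast A-type current, and bring them to the surface. Kcnip1 (KChIP1), known from GABA interneurons, read 9.44, 9.56 and 9.42 (9.47 ± 0.08, adjusted p = 1.77e-06). Kcnip3 (KChIP3), also described as the transcriptional repressor DREAM and as calsenilin, read 10.13, 9.95 and 9.66 (9.91 ± 0.24, adjusted p = 6.02e-06). Kcnip4 (KChIP4) read 7.98, 8.53 and 8.31 (8.27 ± 0.28, adjusted p = 6.97e-05). Kcnip2 (KChIP2), the heart's main form, read 7.63, 7.56 and 7.32 (7.50 ± 0.16, adjusted p = 9.28e-05), but its margin call (adjusted p = 0.0417) was lost without culture 1 and without culture 2. The rest of the Kv4 complex was above background as well. The pores Kcnd1 (7.86 ± 0.11), Kcnd2 (11.48 ± 0.30) and Kcnd3 (9.53 ± 0.04) and the dipeptidyl peptidase-like subunits Dpp6 (9.47 ± 0.17) and Dpp10 (9.81 ± 0.05) were 5 of 5 above background, all with the margin.

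The Kv beta subunits, cytoplasmic proteins related to aldo-keto reductases, sit under Kv1 pores. Kcnab2 read 7.996, 8.78 and 8.57 (8.45 ± 0.40, adjusted p = 0.000179, and 0.00237 with a margin of 1). Kcnab3 read 6.82, 7.35 and 7.18 (7.12 ± 0.27, adjusted p = 0.00154), a call lost at the 99th percentile line (0.835). A second probe set of Kcnab3 was below the line at 5.58 ± 0.11, and the gene was no longer called with the mean of both. Kcnab1, whose subunit adds fast inactivation, read 6.13, 6.27 and 6.14 and passed neither test (95% interval of its distance from the line -0.24 to 0.08). Both called genes were lowest in culture 1 and highest in culture 2. Of 8 Kv1 pore genes 5 were above background, and of these Kcna2, Kcna3, Kcna4 and Kcna6 with the margin.

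The single-pass KCNE subunits, known for tuning the slow potassium currents of heart and inner ear, had no gene above background. Kcne1 (minK) read 5.73, 5.66 and 5.69 and was below the line (adjusted p = 0.000994). Kcne3 read 5.68, 5.30 and 5.85 and was below it too (adjusted p = 0.0117), a call lost without culture 1. Kcne2 (6.14 ± 0.08) and Kcne4 (5.98 ± 0.28) passed neither test. With the line lowered to the 90th percentile (5.82), Kcne2 was called above it by the limma test (adjusted p = 0.00386). Dropping the adjustment could not decide more, because a 1-sided test cannot place a mean above a line that it lies under. All 4 Kcne genes had means under the main background line (-0.65 to -0.12 log2 units from it). Of their possible pore partners, Kcnq3, Kcnq5, Kcnh2 and Kcnb2 were above background with the margin and Kcnq1, the classical partner of minK, was at 6.05 ± 0.14 with neither call. The plot of complexes sets pores and auxiliary genes side by side.

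**Figure D3:**
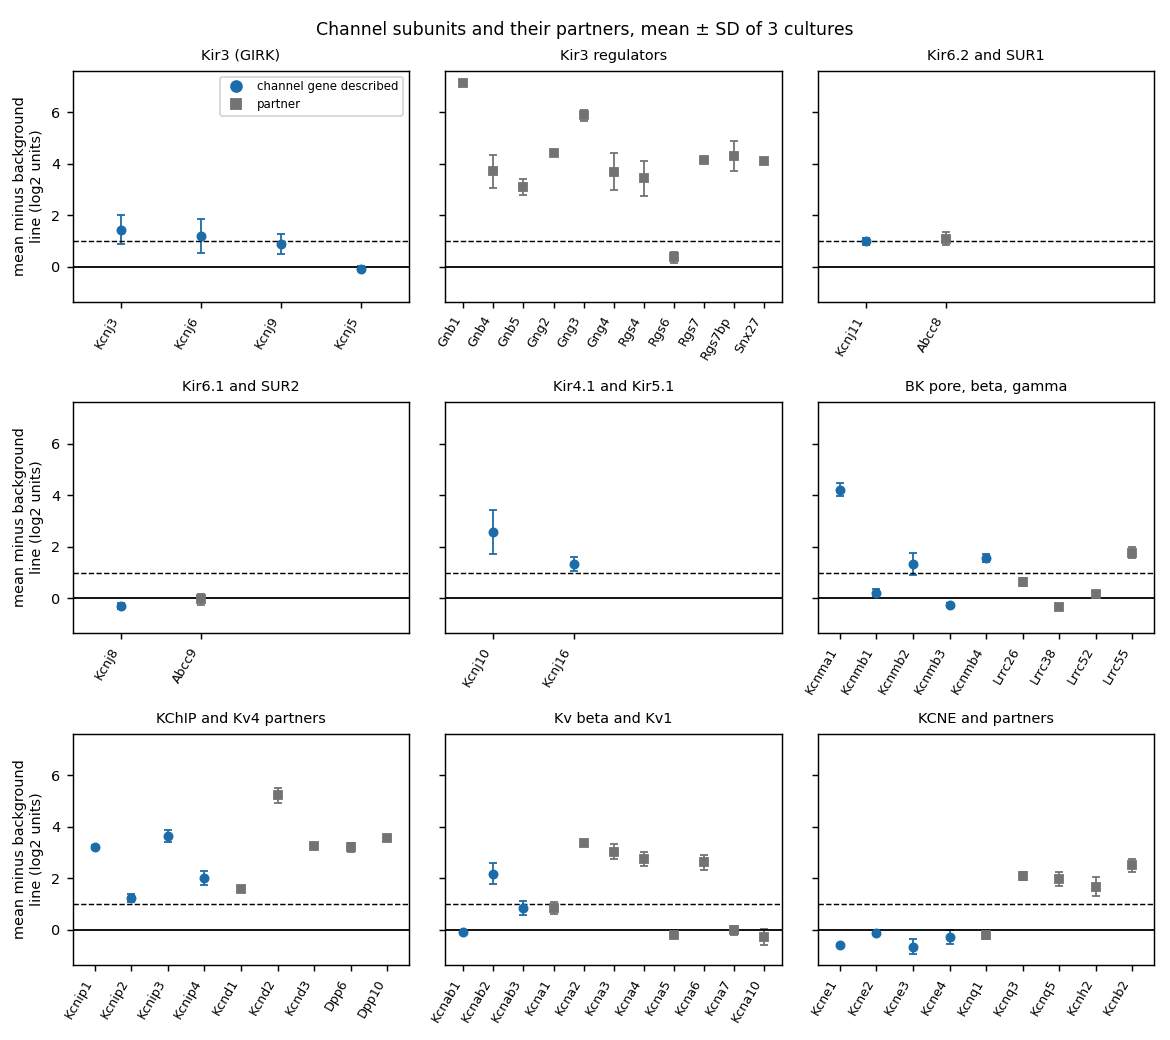
Distance of the mean from the background line (log2 units, points with SD over 3 cultures) for 9 groups of subunits and partners; circles are the channel genes described, squares their partners, the solid line is the background line and the dashed line lies 1 unit higher. Kcnj11 and Abcc8 lie near 1 while Kcnj8 and Abcc9 do not exceed the line, and the Kv4 complex is above the dashed line throughout.

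The members varied more between cultures than genes in general. Among those above background the median SD was 0.24 log2 units, against 0.12 for all 13155 genes above background. SD can move with level, and in each of 3 level ranges (0 to 1, 1 to 2 and 2 to 3 log2 units above the line) the members' median SD was the higher, at 0.15, 0.28 and 0.28 against 0.12, 0.14 and 0.12. A difference of more than 1 log2 unit between the highest and the lowest culture was found for 6 of the 33 members (18.2%), against 1.32% of all genes above background. These were Kcnk9 (1.90), Kcnj10 (1.64), Kcnj6 (1.33), Kcnj3 (1.12), Kcnj4 (1.04) and Kcnk12 (1.01), all pore-forming. Even so, the median SD of called genes was close for pore-forming (0.25 log2 units) and auxiliary members (0.24). The count of 6 rests on cultures 1 and 2. It was 1 (Kcnj10) without culture 1, 1 (Kcnk9) without culture 2 and 6 without culture 3, when the share of all genes was 0.16%, 0.35% and 1.19%. Each culture is 1 array, so differences between single cultures have no test.

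**Figure D4:**
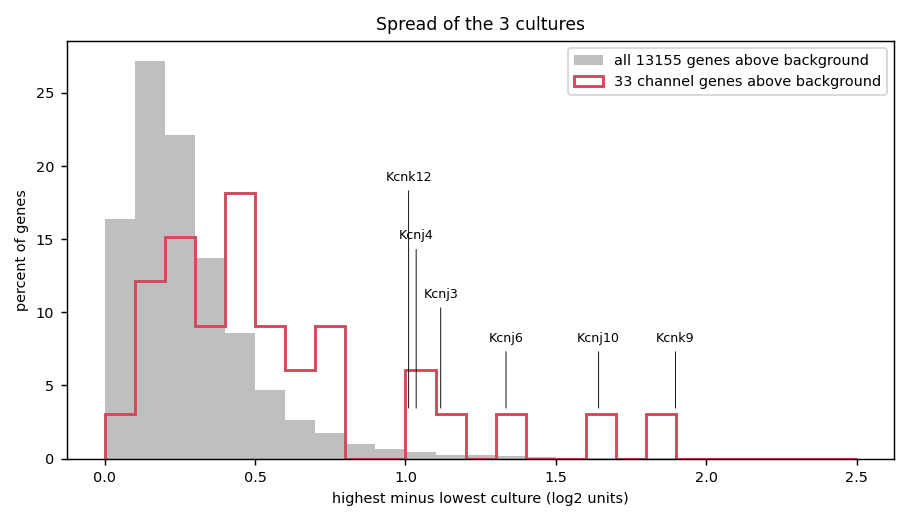
Difference between the highest and lowest culture (x axis, log2 units) as percent of genes (y axis) for the 13155 genes above background (grey) and the 33 channel genes above background (red outline). Beyond 1 log2 unit lie 6 named channel genes, 18.2% of them, against 1.32% of all genes.

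Of the 33 members above background, 15 (45.5%) were highest in culture 2 and lowest in culture 1, against 35.1% of all genes above background. Of the 14 members whose cultures differed by more than 0.5 log2 units, 12 (85.7%) had that order, against 54.0% of the 1578 such genes overall. Kcnj10 and Kcnj16 were the exceptions, both highest in culture 1. Of the 19 members that differed by 0.5 log2 units or less, 3 had it (15.8%), against 32.6% of all such genes. The medians of the deviation from a gene's own mean over the 33 members were -0.14, 0.16 and 0.02 log2 units in cultures 1, 2 and 3, against -0.02, 0.04 and -0.02 over all genes above background. Markers differed between cultures in both directions. All 8 GABA and MGE markers were lowest in culture 1 and 7 were highest in culture 2, against 43.7% and 52.0% of all genes above background. Gad1 (9.64, 10.67 and 10.37) and Slc32a1 (8.39, 9.16 and 8.95) differed most between cultures. Lhx6, Dlx2, Nkx2-1, Dlx5, Sst and Gad2 differed less, by 0.18 (Lhx6) to 0.45 (Gad2) log2 units. The summed signal of the 8 was 13.89, 14.30 and 14.20 log2 units. Sst, which had the highest signal of the 8 (12.97, 13.36 and 13.27), weighed most in it. The 8 general neuronal markers gave 15.01, 15.25 and 15.22, with 6 lowest in culture 1 and 4 highest in culture 2. Dcx and Map2 were highest in culture 1, with differences between cultures of 0.03 and 0.06 log2 units. The astrocyte markers ran the other way, as given beside Kcnj10, and all 6 genes of dividing cells were highest in culture 1. How far the makeup of each culture accounts for the channel values was not tested.

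**Figure D5:**
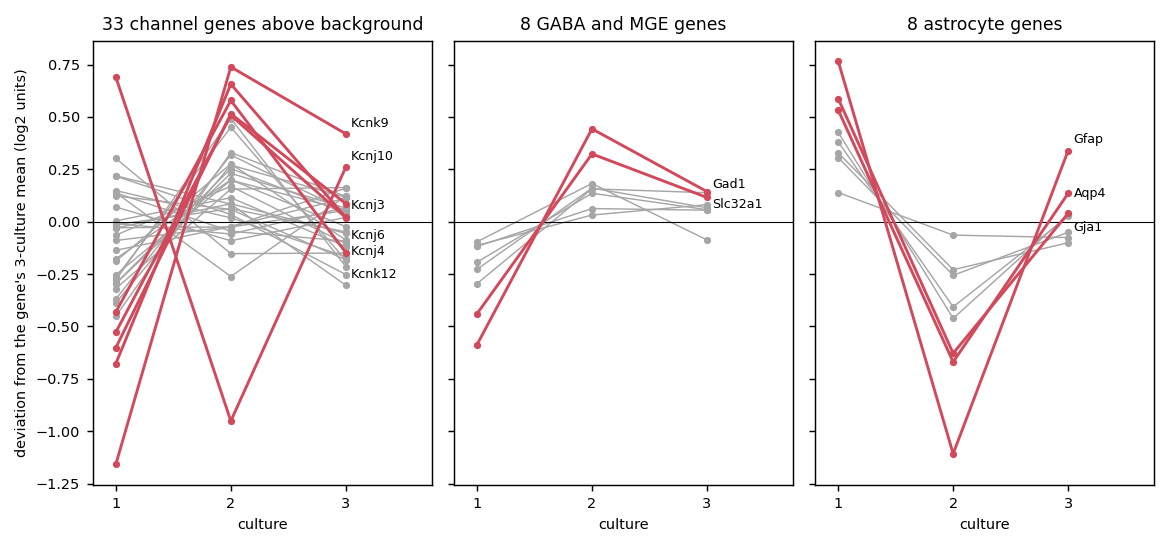
Deviation of each gene from its own 3-culture mean (y axis, log2 units) in cultures 1, 2 and 3 (x axis; lines only join the values of a gene) for the 33 channel genes, the 8 GABA and MGE markers and the 8 astrocyte markers above background. Kcnk9, Kcnj3, Kcnj6, Kcnj4 and Kcnk12 are low in culture 1 and high in culture 2 as Gad1 is, and Kcnj10 is high in culture 1 and low in culture 2 as Gfap is.

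Neighbouring members on the RefSeq map did not always share a call. Kcnj6 was above background and its neighbour Kcnj15 had neither call. Kcnj16 and Kcnj2, side by side on chromosome 11, were both above background, at 1.35 and 0.19 log2 units from the line. Kcnj9 and Kcnj10, side by side on chromosome 1, were both above background, but Kcnj9 was highest in culture 2 and Kcnj10 lowest there. The pairs Kcnk5 and Kcnk16, and Kcnj5 and Kcnj1, had no gene called above background.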

How the data were processed

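Per the submitters' processing notes, the authors used oligo and RMA to make the deposited log2 values, a method that subtracts background, brings arrays to 1 distribution and combines the probes of a probe set. The sources used here give no versions or settings. Arrays give no depth, so their number limits the precision. Probe sets were named from the platform's table (23521 with 1 symbol, 1814 with several, 16010 with none), and all 50 members matched RefSeq by gene identifier. Background came from 1440 receptor probe sets (median 4.37). For the other 22081, limma 3.58.1 (R 4.3.3) fitted an intercept (2.13 prior degrees of freedom) and tested the mean against the line, the line plus 1, and below the line, each 1-sided with Benjamini-Hochberg adjustment over all. A gene was above if any probe set passed and below if all did. Where a gene had several probe sets, the brightest is printed. The call was tested on simulated data. Members, gene lists and tests were chosen with earlier results of these data known. Every member is named, and values of each culture are given mainly for those above background with the margin, with an SD over 0.5 or whose call changed when a culture was left out. The line's percentile, other background families, eBayes, normalization, probe set rule, dim probe sets and left-out cultures were the alternatives tried. Scanner files, slides and scan dates were not analysed here, and no sequences of proteins were used.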

Additional observations from a re-analysis of the deposited data

How the results depend on the processing

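The height of the background line decided most changes. Of the 50 members, in place of 33, 18 were called above background at the 99th percentile (line 7.10), 43 at the 90th (5.82) and 16 against other gene families such as keratin-associated proteins and beta-defensins (7.22), when 49.9%, 72.5% and 48.5% of all genes were called. With the margin of 1, in place of 16, the counts were 6, 23 and 6 in the same order. Below the line, in place of 7, there were 22, 2 and 23, and 11 when every culture had to lie below it with no test. The 10 genes gained above background at the 90th percentile were Kcnj5, Kcnj12, Kcnj15, Kcnk5, Kcnk7, Kcnk16, Kcnn4, Kcnmb3, Kcnab1 and Kcne2. Of these, Kcnj12 and Kcnmb3 had been called below the main line, and passed the limma test above the lower one (adjusted p = 0.0411 and 0.0220). Means of called genes lay on the other side of the line in these cases: at the 99th percentile Kcnj2 (-0.65), Kcnj14 (-0.62), Kcnk6 (-0.14), Kcnk13 (-0.20), Kcnn1 (-0.33) and Kcnmb1 (-0.61); at the 90th Kcnj8 (0.15), Kcnj12 (0.16) and Kcnmb3 (0.19); against the other families Kcnj2 (-0.77), Kcnj9 (-0.071), Kcnj14 (-0.75), Kcnk6 (-0.26), Kcnk13 (-0.33), Kcnk15 (-0.037), Kcnn1 (-0.45), Kcnmb1 (-0.73) and Kcnab3 (-0.10). Calls lost with the mean still above the line were those of Kcnj3, Kcnj4, Kcnj6, Kcnj11, Kcnn2 and Kcnt2 under both of the higher lines, of Kcnj9, Kcnk15 and Kcnab3 at the 99th percentile, and of Kcnk12 and Kcnmb2 against the other families. With 1 culture left out, 28 to 32 were above background, 12 to 15 were with the margin and 3 to 7 were below the line, and 40 of 50 members kept their call throughout. A fit to 2 cultures has fewer degrees of freedom. The number of members with a difference over 1 log2 unit, a count added with its alternatives after the data were seen, was 1 to 6 with 1 culture left out and 5 after quantile normalization, when Kcnk12 dropped out. Intensity trend, robust eBayes, median centring and leaving out dim probe sets changed no member's call. Quantile normalization lost Kcnj2 and the mean of probe sets lost Kcnab3. Of the 50, 16 were above background and 2 below the line under all 13 alternatives. No paired analysis was possible because the series has 1 group.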
